A study of Mus musculus with 4 samples.

Results

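The 2 mutant heart libraries of the study, both from mice with altered cardiac myosin-binding protein C, were set directly against each other: the t/t library, named by its submitters as a dilated cardiomyopathy (DCM) model, and the ΔC10mut library, named as a hypertrophic cardiomyopathy (HCM) model. They are 2 of 4 libraries in all, and the other two, a control and a nontransgenic (NTG) library, served as a yardstick. Of 25004 gene symbols in the series, 2255 had 10 or more counts in at least 1 of the mutant libraries and were compared.

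Each library was made from the pooled hearts of 3 mice aged 12 weeks, sequenced as poly(A)-selected RNA with a kit that keeps strand. The ΔC10mut mice carried a transgene of a MYBPC3 variant whose label gives a size of 25 bp, and their NTG partners carried none; both were labelled C57BL/6. The t/t mice, with the cMyBP-C(t/t) genotype, and their control mice were both labelled FvB/N. The promoter of the transgene, the number of founder lines and the sex of the mice are not given in the sources used here.

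A ratio of t/t over ΔC10mut therefore carries the strain label along with the genotype. The ratio of control over NTG carries the same change of strain label without either mutant, and each mutant ratio is given beside it. The 2 ratios share no library. With 1 pool per group there is no replicate error, so no test was made and no p-value is given. Intervals cover counting error only and are 95% exact binomial (Clopper-Pearson) intervals of the ratio after scaling to library totals. Higher and lower were read by a rule of size: a gene passed, and is called counted below, when its ratio was at least 2-fold (a log2 ratio of 1 or more in size) and its interval excluded equality. It was also called apart from the control ratio when the difference between both log2 ratios was at least 1 in the same direction with an interval excluding 0.

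Cardiac myosin-binding protein C, encoded by Mybpc3, sits along the thick filament and tunes how myosin heads meet actin. Its alteration is a known cause of inherited cardiomyopathy, in which the ventricle can thicken its wall or dilate. The working heart draws most of its ATP from mitochondria, where fatty acids and other fuels feed the respiratory chain. Mhrt is a noncoding RNA transcribed antisense to the myosin heavy chain gene Myh7 and is known as a heart-enriched transcript.

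Totals ranged from 170543 counts in NTG to 187365 in ΔC10mut, with 186420 in t/t and 176633 in control, so 1 count equals between 5.34 and 5.86 CPM (counts per 1000000). These are shallow libraries, and by counting error alone a gene listed at 0 can hold up to 3 counts' worth of signal. That bound does not cover reads dropped in counting where they fit several transcripts. Heart identity was checked on 12 cardiomyocyte markers, of which 6 had 10 or more counts in a mutant library. Myl2 had 3520 counts in ΔC10mut and 2453 in t/t and Actc1 had 1403 and 1091. In contrast, Tnnt2, Tpm1 and Myl3 were at 0 in all libraries and Myh6 had 1 count in t/t alone. Tnnt2 has 9 annotated transcripts, Tpm1 has 10 and Myl3 and Myh6 have 2 each, so a 0 there does not show absence. Whether their reads were dropped was not tested. Rows whose exons lie opposite those of another gene held 69.9% of ΔC10mut counts and 69.1% of t/t counts (72.7% in NTG and 70.8% in control). Whether the counting used strand is not given in the sources used here, so reads of such a row and of its partner cannot be told apart, and the partner is named beside the main results. Lymphocyte, adipocyte, erythroid and Schwann cell markers had no member with 10 counts. The X-inactivation gene Xist, a marker of female cells, had 8 counts in ΔC10mut, 14 in t/t and 0 in both controls. Tsix, which overlaps it, had 147 counts in ΔC10mut and 159 in t/t and 0 in both controls, while the Y-linked gene Ddx3y had 14 counts in control, 1 in NTG and 0 in both mutants. Ratios of a mutant to its own control therefore carry this difference in sex-linked genes as well. The ratio of control over NTG carries the Ddx3y difference, so the yardstick does not hold the strain label alone. The part of sex-linked genes in these ratios, and in the calls of genes apart from the control ratio, was not tested.

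Between the mutant libraries, 224 of the 2255 genes (9.93%) were counted as different. Of these, 132 (5.85%) were higher in t/t and 92 (4.08%) were lower. The control libraries, compared the same way, gave 183 of 2069 genes (8.84%), with 118 (5.7%) higher in control and 65 (3.14%) lower. The split of the control calls depended on scaling, with 83 higher and 95 lower under trimmed-mean (TMM) factors, while the mutant split was 119 higher and 106 lower. The share that differed between the mutant libraries was thus close to the share that differed between the controls. Of the 224, 111 (4.92% of genes tested) were also apart from their control ratio, 56 of them higher and 55 lower in t/t.

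Among the 132 higher in t/t, 8 were also higher in control, 3 were lower in control, 81 did not pass the rule between the controls and 40 had under 10 counts there. Among the 92 lower in t/t, 5 were also lower in control, 2 were higher, 57 did not pass and 28 had under 10 counts. Of those measured between the controls, 8 of 92 (8.7%) and 5 of 64 (7.81%) ran the same way, beside 5.7% and 3.14% of all genes counted as higher and lower in control. Across the 1848 genes measured in both comparisons, the log2 ratios were nearly unrelated, with a Pearson r of -0.03 and a Spearman rho of -0.09. At 100 or more counts in both, where counting error is small, rho was -0.16 over 281 genes when the pseudogene row Rps18-ps4 was left out. These correlations run across genes, which share libraries and depth and are not independent replicates. The pseudogene row had 1 count in NTG, 814 in ΔC10mut, 641 in control and 665 in t/t.

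**Figure D1:**
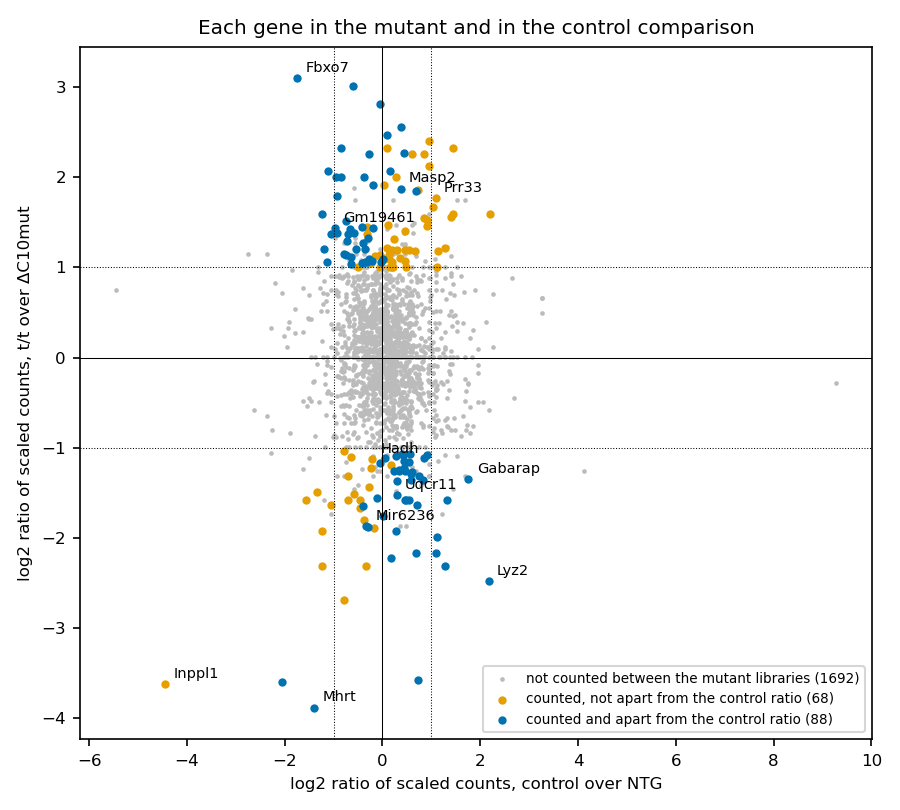
Log2 ratio of t/t over ΔC10mut (vertical axis) against log2 ratio of control over NTG (horizontal axis) for the 1848 genes with 10 or more counts in both comparisons, 1 point per gene. Dotted lines mark 2-fold; Mhrt lies low on both axes, Lyz2 and Gabarap lie low between the mutants and high between the controls, and the single point far to the right is Rps18-ps4.

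The library in which each difference lay was described with each mutant's own control, which shares a library with the mutant ratio. Of the 132 genes higher in t/t, 39 were also counted as higher in t/t than in control, 27 as lower in ΔC10mut than in NTG, 5 as both and 61 as neither. Of the 92 lower in t/t, 26 were counted as higher in ΔC10mut than in NTG, 16 as lower in t/t than in control, 3 as both and 47 as neither. Genes with 10 to 19 counts in the richer mutant library had 10.1% counted, those with 20 to 49 counts had 14.2%, the 423 genes with 50 or more but under 200 had 5.2%, and the 162 genes with 200 or more counts gave 1 higher and 3 lower (2.47%).

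The sequence windows that belong to the leading results are given first. The microRNA row Mir6236, lower in t/t, is annotated by RefSeq with the mature sequence below, its seed (bases 2 to 8) in capitals; the counted row is the precursor in a poly(A) library, so its reads do not measure the mature form.
mmu-miR-6236, chr9:110281353-110281371, plus strand: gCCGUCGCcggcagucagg
The 250 bases before the annotated start are given for Mhrt, which had the largest ratio between the mutants among genes with 50 or more counts, for the complex I gene Ndufb8, whose log2 ratio was the lowest of the respiratory chain, and for the 3 respiratory chain genes with the lowest ratio among those that hold the NRF1 motif GCGCANGCG. Capitals mark that motif on either strand, overlapping matches included. Starts are those of RefSeq, and the windows of Mhrt and Cox6a1 reach past the start in GENCODE M21, another annotation, into the gene.
Mhrt promoter, chr14:54968537-54968786, plus strand: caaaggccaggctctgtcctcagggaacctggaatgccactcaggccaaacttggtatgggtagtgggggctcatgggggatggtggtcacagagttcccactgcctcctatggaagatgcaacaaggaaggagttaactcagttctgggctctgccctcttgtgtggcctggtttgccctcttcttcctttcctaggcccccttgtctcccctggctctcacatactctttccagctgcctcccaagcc
Ndufb8 promoter, chr19:44555443-44555692, minus strand: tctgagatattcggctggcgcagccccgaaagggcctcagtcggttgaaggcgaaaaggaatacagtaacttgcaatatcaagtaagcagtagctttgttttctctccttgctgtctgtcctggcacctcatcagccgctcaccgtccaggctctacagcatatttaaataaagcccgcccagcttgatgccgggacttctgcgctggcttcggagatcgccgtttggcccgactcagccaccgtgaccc
Cox6a1 promoter, chr5:115348959-115349208, minus strand: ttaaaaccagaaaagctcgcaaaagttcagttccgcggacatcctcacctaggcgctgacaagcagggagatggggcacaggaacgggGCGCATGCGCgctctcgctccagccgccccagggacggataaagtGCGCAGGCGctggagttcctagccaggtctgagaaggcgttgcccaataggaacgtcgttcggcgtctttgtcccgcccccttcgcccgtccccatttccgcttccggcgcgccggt
Ndufa8 promoter, chr2:36049339-36049588, minus strand: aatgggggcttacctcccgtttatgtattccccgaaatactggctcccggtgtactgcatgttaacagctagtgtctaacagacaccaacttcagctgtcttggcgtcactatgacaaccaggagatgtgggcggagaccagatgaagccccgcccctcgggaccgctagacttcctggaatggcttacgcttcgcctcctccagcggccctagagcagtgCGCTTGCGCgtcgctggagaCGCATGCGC
Ndufa11 promoter, chr17:56717512-56717761, plus strand: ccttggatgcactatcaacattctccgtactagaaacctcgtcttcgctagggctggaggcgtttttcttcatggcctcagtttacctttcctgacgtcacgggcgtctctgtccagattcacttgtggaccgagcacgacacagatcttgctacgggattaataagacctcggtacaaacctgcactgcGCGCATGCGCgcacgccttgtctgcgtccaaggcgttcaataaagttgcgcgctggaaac

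NRF1 is a nuclear factor known for binding promoters of many mitochondrial genes. RefSeq windows (GRCm38.p6) were found for 41 of the 50 measured respiratory chain genes, and 8 of these (19.5%) held GCGCANGCG on either strand. The same motif stood in 216 of 1743 measured genes with a window (12.4%) and in 5.16% of all 32851 windows. TNAAGGTCA, a form of the element bound by estrogen-related receptors, was in 0 of the 41 and in 13 of the 1743. CTATTTNTA, a form of the MEF2 site of muscle genes, was also in 0 of the 41 and in 25 of the 1743, and TATAAA was in 2 of the 41 (4.9%) and in 132 of the 1743 (7.6%). The windows of Mhrt and Ndufb8 held none of these letters. The 8 genes with the NRF1 motif had log2 ratios of -1.26 for Cox6a1, -0.95 for Ndufa8, -0.94 for Ndufa11, -0.91 for Cycs, -0.76 for Sdhd, -0.63 for Atp5k, -0.41 for Atp5h and 0.50 for Sdha, all negative but Sdha.

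In the sarcomere lists 1 row stood far from the rest. Mhrt (chr14:54968678-54974349 on the plus strand in GENCODE M21, GRCm38) had 6620 counts in ΔC10mut and 447 in t/t, against 1778 in NTG and 698 in control. It was the highest row of the thick filament list in ΔC10mut, where it took 3.53% of all counts, compared with 0.24% in t/t, 1.04% in NTG and 0.395% in control. The fold was 14.7 lower in t/t, a log2 ratio of -3.88 (-4.02 to -3.74). The control ratio ran the same way at -1.40, and the mutant ratio was larger than it by a log2 difference of -2.48 (-2.67 to -2.29). Mhrt lies antisense to Myh7, and the Myh7 row itself had 11 counts in ΔC10mut, 20 in t/t, 27 in NTG and 20 in control, with an interval that includes equality.

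Mybpc3, the gene altered in both models, had 368 counts in ΔC10mut and 412 in t/t, against 344 in NTG and 266 in control. Its log2 ratio was 0.17 (-0.04 to 0.38), beside -0.42 between the controls. The counts do not separate endogenous from transgenic or mutant transcripts. Mhrt, which stands in the thick filament list as the antisense partner of Myh7, was the list's only counted gene: 9 of 15 members were measured, 0 were higher and 1 was lower, and 6 ratios were positive and 3 negative with a median of 0.33, beside 0.08 over all 2255 genes. Myom2, an M-band crosslinker, had 134 counts in ΔC10mut and 217 in t/t (165 in NTG, 88 in control), a log2 ratio of 0.70 (0.39 to 1.02) beside -0.96. It was below 2-fold, with its highest count in t/t and its lowest in control. Myl2, the ventricular regulatory light chain, had 3520 counts in ΔC10mut and 2453 in t/t, beside 2405 in NTG and 2556 in control, so ΔC10mut stood above the other three.

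None of the 6 measured thin filament genes was counted, and their log2 ratios ran from -0.45 to 0.47. Tnnc1, cardiac troponin C, had 568 counts in ΔC10mut and 413 in t/t against 357 in NTG and 613 in control, a log2 ratio of -0.45 (-0.64 to -0.27) beside 0.73. Tnni3, the inhibitory troponin, had 1079 and 804 counts against 783 and 949, a log2 ratio of -0.42 (-0.55 to -0.28). Both ran opposite to the control ratio. In the Z-disc, desmin and desmosome list, 14 of 22 genes were measured and 1 was higher: Nexn, the actin-binding nexilin, with 25 counts in t/t and 9 in ΔC10mut against 7 in NTG and 6 in control. Tcap, the titin cap, had 393 counts in ΔC10mut and 256 in t/t, beside 323 and 306, a log2 ratio of -0.61 (-0.84 to -0.38). The calcium cycling list had 9 measured members and 1 counted, Casq1, a calsequestrin of skeletal muscle type, with 15 counts in t/t and 5 in ΔC10mut, and 28 in control and 10 in NTG; its partner row is Gm17224. Ryr2, the calcium release channel, had 201 counts in t/t and 144 in ΔC10mut (log2 ratio 0.49, 0.17 to 0.81), with 141 in control and 129 in NTG.

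Ion channel and conduction genes were few at this depth. Of 23 genes, 5 had 10 or more counts, 4 had positive ratios, and the median was 0.75 beside -1.14 between the controls. Gja1, the gap junction protein connexin 43, had 107 counts in t/t and 64 in ΔC10mut, against 80 in control and 58 in NTG, a log2 ratio of 0.75 (0.29 to 1.22). Kcnj11, a subunit of the ATP-sensitive potassium channel, had 54 and 38 counts, with 15 in control and 32 in NTG.

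Most measured genes of the respiratory chain, the series of complexes that passes electrons to oxygen and drives ATP synthesis, leaned lower in t/t. Other short genes did so too, as given below with transcript length. Of 79 subunit genes of complexes I to V, 50 were measured, and 44 of these had lower scaled counts in t/t than in ΔC10mut. Their median log2 ratio was -0.50, beside 0.08 over all genes, of which 43.3% were negative. Few single genes passed the 2-fold rule, with 4 lower and 0 higher. Without that size limit, 24 of the 50 had an interval wholly below equality and 2 had one wholly above it, against 216 (9.6%) and 271 of all 2255 genes. Between the controls the genes leaned the other way: 40 of 48 were higher in control than in NTG, with a median of 0.28 (32 of 48 and a median of 0.15 under TMM factors). Over all 2069 genes compared between the controls, 56.1% were positive with a median of 0.10, and over the 977 without an opposite-strand exon, 64.0% were positive with a median of 0.21.

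Summed over the 79 genes, the level was 29632 CPM in ΔC10mut, 24375 in t/t, 25312 in control and 22335 in NTG. The sum was highest in ΔC10mut, and those of t/t and of both controls lay nearer to each other. Set against each mutant's own control, 47 of the 50 genes were higher in ΔC10mut than in NTG and 38 were lower in t/t than in control, beside 58.0% and 47.1% of all 2255 genes. These 2 counts share libraries with the mutant ratio and are not further evidence for it.

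By complex, the 23 measured complex I genes had a median of -0.58, with 21 negative, and the 27 of complexes II to V had a median of -0.49, with 23 negative. Ndufb3, an accessory subunit of complex I, had 31 counts in ΔC10mut and 12 in t/t, beside 25 in NTG and 39 in control, a log2 ratio of -1.36 (-2.46 to -0.36). Ndufb8 had 14 and 3 counts (2 in NTG, 4 in control), a log2 ratio of -2.21 (-4.66 to -0.37), and Ndufc1 had 23 and 10 (18 in NTG, 21 in control). In complex III, Uqcr11 had 29 and 10 counts beside 15 and 19, a log2 ratio of -1.53 (-2.73 to -0.45). Uqcrh, the hinge protein of the same complex, rested on more counts: 241 in ΔC10mut, 127 in t/t, 147 in NTG and 142 in control, a log2 ratio of -0.92 (-1.24 to -0.60). In complex IV, Cox7a1, the heart and muscle form of its subunit, had 153 and 103 counts beside 83 in NTG and 131 in control. The genes of Uqcrh, Cox7a1 and Ndufb3 have no exon on the opposite strand, and the same held for 34 of the 50, of which 32 were negative with a median of -0.58.

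A few abundant subunits ran the other way or level. Sdha, the flavoprotein of complex II, had 224 counts in t/t and 159 in ΔC10mut, beside 136 in control and 131 in NTG, a log2 ratio of 0.50 (0.20 to 0.80). Atp5a1, the alpha subunit of ATP synthase, had 593 and 449 counts, beside 389 and 352, a log2 ratio of 0.41 (0.23 to 0.59), with Haus1 as its partner row. Atp5b, the beta subunit, had 715 counts in both mutants.

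**Figure D2:**
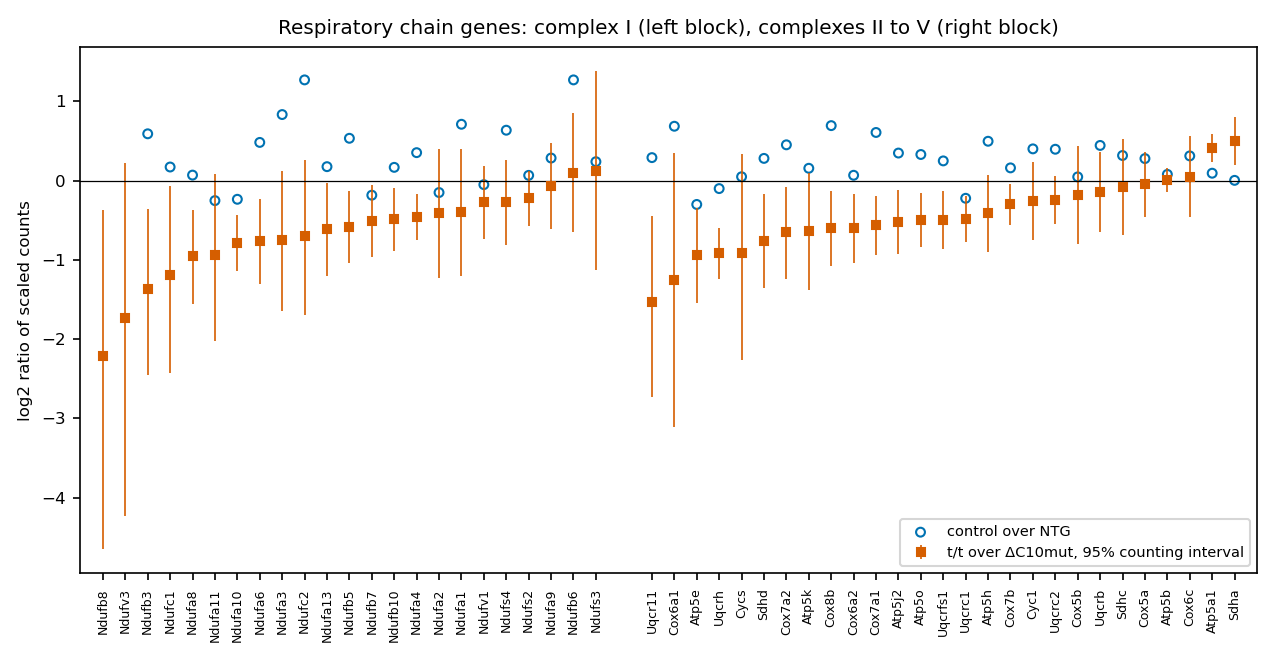
Log2 ratio of t/t over ΔC10mut for the 50 measured respiratory chain genes (squares, bars are 95% counting intervals) beside control over NTG (open circles, drawn where a control library had 10 or more counts), sorted within complex I on the left and complexes II to V on the right. Of the squares, 44 lie below 0, and Atp5a1 and Sdha at the right end have intervals wholly above it.

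Transcript length moved with the mutant ratio. Over the 1085 genes with a length and no opposite-strand exon, the Spearman correlation of merged exon length with the log2 ratio was 0.36 across genes, and -0.09 for control over NTG. The median ratio was -0.63 for genes up to 1000 bp, -0.37 for 1000 to 2000 bp, -0.08 for 2000 to 4000 bp, 0.16 for 4000 to 8000 bp and 0.46 above 8000 bp. With opposite-strand exons included, over 2232 genes, the correlation was weaker at 0.25, and -0.01 for control over NTG. The medians then ran from -0.23 up to 1000 bp to 0.35 above 8000 bp. Respiratory chain genes are short, with a median exon length of 1541 bp against 3915 bp for the other measured genes. In the shortest class, the 10 respiratory chain genes without an opposite-strand exon had a median of -0.67 and the 38 other genes had -0.57, so other short genes were low in t/t to a similar extent. From 1000 to 2000 bp the medians were -0.49 for 11 respiratory chain genes and -0.33 for 130 others, and from 2000 to 4000 bp they were -0.52 for 9 and -0.05 for 365. The part of length in the respiratory chain result was not tested.

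**Figure D3:**
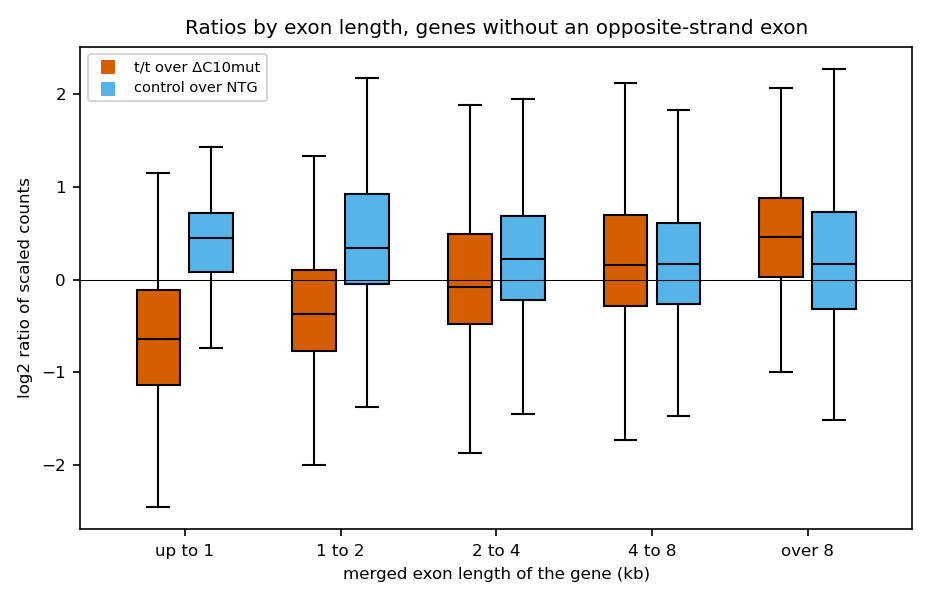
Log2 ratios of genes without an opposite-strand exon, in 5 classes of merged exon length, for t/t over ΔC10mut and for control over NTG. Boxes span the quartiles with the median as a line, and whiskers reach the most extreme gene within 1.5 box lengths; medians of the mutant ratio climb from -0.63 to 0.46 with length.

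Mitochondrial ribosomal proteins, which make the mitochondrially encoded subunits, showed a median of -0.58 over 35 measured genes, 24 negative and 11 positive, with 6 lower and 0 higher. Over all genes the median was 0.08, 43.3% were negative and 4.08% were lower. Between the controls the list median was 0.41, beside 0.10 over all genes. The counted ones were Mrpl43 (19 counts in ΔC10mut, 4 in t/t), Mrpl44 (26 and 7), Mrpl41 (18 and 5), Mrpl33 (18 and 7), Mrpl28 (25 and 10) and Mrps6 (11 and 0). Mrpl43 has Twnk and Mrpl44 has Wdfy1 on the other strand. For Mrps6 the count of 0, raised to the floor of 3 counts, gives a 3.65-fold lower level. That is a log2 ratio of -1.87, and the upper end of its interval is -1.32. Their counts in NTG were 1 to 12 and in control 3 to 14. ΔC10mut held the highest count for each of the 6. The minimum count and the choice of genes lower in t/t favour that placement, so it is not a separate result. The 2 most abundant members did not share the direction. Mrps25 had 355 counts in ΔC10mut and 520 in t/t, with Nr2c2 as its partner row, a log2 ratio of 0.56 (0.36 to 0.76), and Mrps7 had 113 and 114, with Gga3 as its partner row. These genes had a median exon length of 2093 bp, and the length relation given above applies to them as well.

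Cytosolic ribosomal proteins had 24 of 78 genes measured, a median of -0.34 and 15 negative ratios, with 2 lower and 1 higher. Over all genes the median was 0.08, 43.3% were negative, 4.08% were lower and 5.85% were higher. Between the controls the list median was 0.38, beside 0.10 over all genes. The part of transcript length in this list was not tested. Rps14 (31 counts in ΔC10mut and 13 in t/t) and Rps26 (16 and 5) were lower in t/t. Rpl3l, the form of a large-subunit protein found in heart and skeletal muscle, was higher, with 21 counts in t/t and 4 in ΔC10mut against 10 in control and 5 in NTG. Reads of ribosomal protein genes can be shared with processed pseudogenes, so these counts are uncertain.

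Fuel genes upstream of the respiratory chain differed less. Fatty acid oxidation had 18 of 30 genes measured, a median of -0.14, and 1 counted gene. This was Hadh, the short-chain 3-hydroxyacyl-CoA dehydrogenase of the beta-oxidation spiral, with 140 counts in ΔC10mut, 64 in t/t, 47 in NTG and 42 in control, a log2 ratio of -1.12 (-1.57 to -0.69). Hadh had its highest count in ΔC10mut, and t/t lay above both controls. Acadm, the medium-chain acyl-CoA dehydrogenase, had 232 counts in ΔC10mut and 228 in t/t. Lpl, lipoprotein lipase, had 1170 and 1331, a log2 ratio of 0.19 (0.08 to 0.31). The 13 measured glycolysis and glucose genes had a median of 0.34 with 10 positive and none counted, and the control median was 0.29. Hk2, a hexokinase, had 50 counts in t/t and 27 in ΔC10mut beside 24 and 32, a log2 ratio of 0.90 (0.19 to 1.63). Pdk4, which restrains pyruvate entry into the citrate cycle, had 46 and 28 counts, with 113 in control and 78 in NTG, so both mutant libraries lay below both controls. The citrate cycle and shuttle list (15 measured, median -0.05) and the ketone and branched-chain amino acid list (13 measured, median -0.20) had no counted gene.

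**Figure D4:**
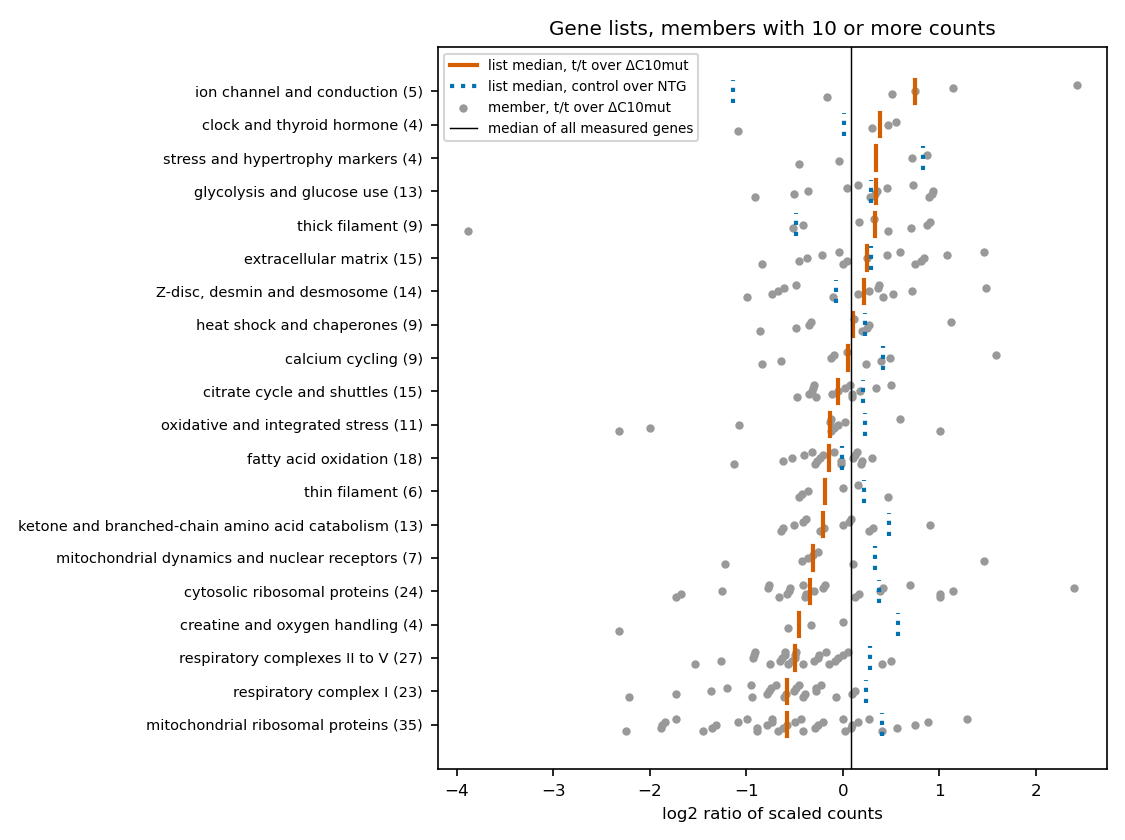
Log2 ratios of t/t over ΔC10mut for members with 10 or more counts (grey points, vertical offsets only separate points) of each pathway list with at least 4 such members, with list medians for the mutant and for the control comparison. The lowest 3 medians belong to mitochondrial ribosomal proteins, complex I and complexes II to V, whose control medians lie on the other side of 0.

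Other mitochondrial and redox genes that were lower in t/t included Chchd10, a protein of the mitochondrial intermembrane space, with 82 counts in ΔC10mut, 35 in t/t, 39 in NTG and 55 in control (log2 ratio -1.22, -1.84 to -0.63), whose partner row is Mmp11. Txn2, mitochondrial thioredoxin, had 38 and 18 counts, beside 13 in NTG and 20 in control. Gsta4, a glutathione transferase that clears lipid peroxidation products, had 20 and 5, beside 8 and 18. Together with Gars, the glycyl-tRNA synthetase (15 and 3 counts, beside 17 in NTG and 14 in control), Txn2 and Gsta4 made up the 3 counted of 11 measured genes in the oxidative and integrated stress list, all lower in t/t, where 4.08% of all genes were counted as lower.

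Among the remaining genes with 50 or more counts that were lower in t/t, Mir6236 (chr9:110281287-110281409), whose sequence is given above, had 295 counts in ΔC10mut and 80 in t/t, beside 112 and 94, a log2 ratio of -1.88 (-2.25 to -1.51). The row NR_046233, which the RefSeq table used does not pair with a symbol, had 371 and 125 counts beside 96 and 92. For both rows ΔC10mut stood alone above the other 3 libraries.

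Pcp4l1, a small protein related to the calmodulin-binding Pcp4, had 89 counts in ΔC10mut, 31 in t/t, 26 in NTG and 18 in control. Cavin4, the muscle-specific caveolar coat protein, had 52, 23, 26 and 26 in the same order. The caveolin of muscle, Cav3, was also counted, with 16, 4, 4 and 6 counts, and is named after its values were seen. The row C920021L13Rik had 138, 57, 73 and 115 counts, and BC028528 lies opposite it. Nol3, a repressor of apoptosis rich in striated muscle with 4931428F04Rik as its partner row, had 54, 23, 51 and 45 counts in that order. Nol3 differed in placement from the others, since t/t was low and ΔC10mut lay near both controls. Cops3, a subunit of the COP9 signalosome with Gm16062 on the other strand, had 50 counts in ΔC10mut and 20 in t/t, with 41 in NTG and 26 in control.

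Higher in t/t, the largest ratio at 50 or more counts was that of Masp2 (chr4:148602554-148615499), the complement-activating serine protease, whose exons meet those of Tardbp on the other strand. It had 113 counts in t/t and 31 in ΔC10mut, beside 126 in control and 94 in NTG, a log2 ratio of 1.87 (1.29 to 2.50). ΔC10mut was the library that stood apart. The same placement held for Spg11, a lysosomal trafficking protein with Eif3j1 on the other strand (58 in t/t and 28 in ΔC10mut, 70 and 69 in control and NTG), Csrnp2, a nuclear protein of the cysteine- and serine-rich family (56 and 27, 58 and 72), and AI507597 (165 and 78, 189 and 181), which lies opposite Tmem82.

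For a second set of rows, t/t stood alone. The row 5330439B14Rik, antisense to the ATP-sensitive potassium channel subunit gene Abcc9, had 282 counts in t/t, 123 in ΔC10mut, 54 in control and 76 in NTG, a log2 ratio of 1.20 (0.89 to 1.52). Gm19461, opposite Plekha6, had 102, 38, 20 and 38 counts in the same order, and Gm5105, opposite 1110002E22Rik, had 69, 20, 12 and 22. Gm16090, opposite the desmosomal cadherin gene Dsg2, had 179, 83, 48 and 72, and Sorbs2os, opposite the Z-disc adaptor gene Sorbs2, had 100, 47, 49 and 57. Lbh, a transcriptional cofactor known from limb bud and heart, has no exon on the opposite strand and had 71, 31, 33 and 41 counts, a log2 ratio of 1.20 (0.57 to 1.86) beside -0.36. In all 6 rows t/t was the highest library. Prr33 separated the strain labels as well, with 122 counts in t/t, 36 in ΔC10mut, 130 in control and 59 in NTG.

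**Figure D5:**
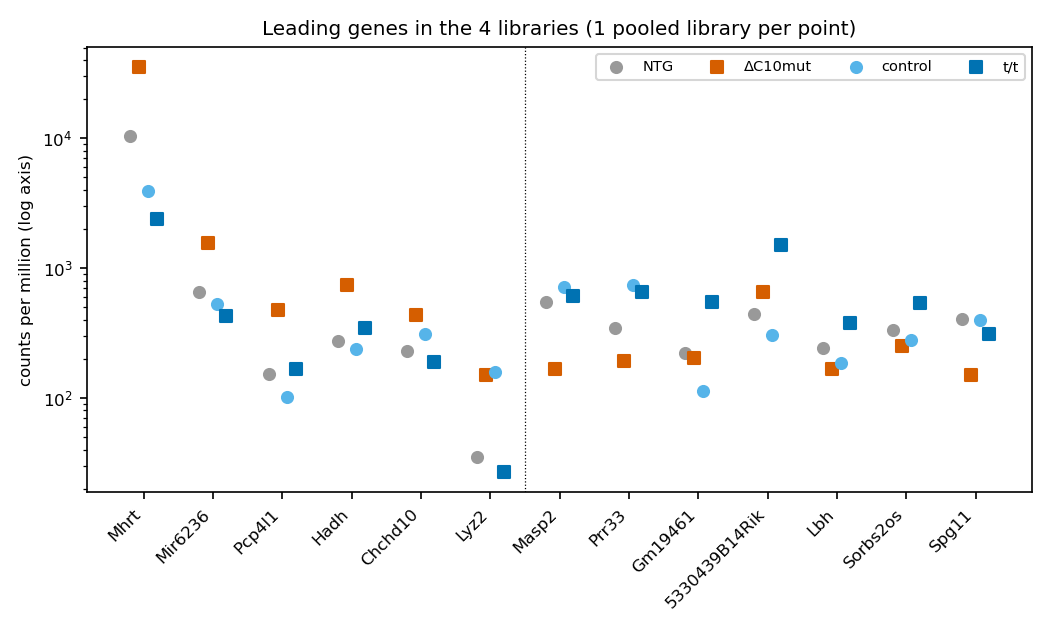
Level in CPM (log axis) of 6 genes lower in t/t than in ΔC10mut (left of the dotted line) and 7 higher (right) in each of the 4 libraries, 1 point per pooled library with no error bar because there is no replicate. ΔC10mut stands alone at the top for Mhrt, Mir6236, Pcp4l1 and Hadh, and alone at the bottom for Masp2 and Spg11, while t/t stands alone at the top for Gm19461, 5330439B14Rik, Lbh and Sorbs2os.

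Some cardiac regulators below 50 counts were counted as higher in t/t; they were chosen for mention after their values were seen. Tbx20, a T-box factor of heart development, had 17 counts in t/t and 3 in ΔC10mut, beside 8 in each control. Rbm20, the splicing factor of titin, had 47 and 19, beside 22 in control and 18 in NTG. Akap6, which anchors protein kinase A at the nuclear envelope of cardiomyocytes, had 36 and 10, beside 24 and 14. Bvht, the noncoding RNA Braveheart, had 43 and 12, beside 72 in control and 43 in NTG, so here ΔC10mut was the low library. Their log2 ratios were 2.51 (0.72 to 4.92) for Tbx20, 1.31 (0.52 to 2.17) for Rbm20, 1.86 (0.81 to 3.03) for Akap6 and 1.85 (0.90 to 2.91) for Bvht. Tbx20 and Bvht were apart from their control ratio, and Rbm20 and Akap6 were not. Tbx20, Rbm20 and Akap6 are long transcripts, and long genes were higher in t/t in general.

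Other lists had little to count. Stress and hypertrophy markers had 4 measured members and none counted; Nppa, the atrial natriuretic peptide, had 22 counts in ΔC10mut and 16 in t/t, against 9 in NTG and 60 in control. Ankrd1, a stretch-responsive Z-disc and nuclear protein, had 321 counts in t/t and 196 in ΔC10mut, but 609 in control and 227 in NTG, a log2 ratio of 0.72 (0.46 to 0.98) beside 1.37. For both genes control was the highest library. In the clock and thyroid hormone list Dbp, a clock output factor, was the counted gene with 49 counts in ΔC10mut and 23 in t/t, 18 in NTG and 35 in control, and Sphk2 lies opposite it. Its fellow clock gene Nr1d1 ran the other way with 187 counts in t/t and 128 in ΔC10mut, a log2 ratio of 0.55 (0.22 to 0.89), and overlaps Thra on the opposite strand. The extracellular matrix list had 15 of 40 genes measured, a median of 0.25 and none counted. Col3a1, a fibrillar collagen, had 18 counts in each mutant library. Among chaperones, Hsp90aa1 was higher with 26 counts in t/t and 12 in ΔC10mut.

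Markers of other cell types were sparse, and fewer cells of a type and less RNA per cell cannot be told apart in bulk tissue. Endothelial markers had 3 of 10 genes measured, all with negative ratios, and their summed counts were 236 in ΔC10mut, 138 in t/t, 225 in NTG and 271 in control. Most of these counts came from Fabp4, a fatty acid carrier of capillary endothelium, with 184, 102, 154 and 203 counts in the same order, a log2 ratio of -0.84 (-1.21 to -0.49). Pecam1 was at 0 in all libraries. Macrophage markers summed to 55 in ΔC10mut, 19 in t/t, 19 in NTG and 51 in control, with lysozyme gene Lyz2 giving 28, 5, 6 and 28 of these. Fibroblast markers summed to 41 and 39 in the mutants. Mural cell markers summed to 212 in ΔC10mut, 156 in t/t, 121 in NTG and 189 in control, with none counted. The part of cell composition in the gene differences above was not tested.

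Among the genes with the largest difference between both ratios, some were not counted between the mutants. A630019I02Rik, opposite the muscle gene Cmya5, had 1273 counts in t/t and 654 in ΔC10mut, against 70 in control and 244 in NTG. Its log2 ratio was 0.97 (0.83 to 1.11) between the mutants and -1.85 between the controls. Slc3a1, an amino acid transporter subunit with Prepl as its partner row, had 481 and 356 counts against 159 and 440. Pitpnm2, a phosphatidylinositol transfer protein, had 55 and 33 against 1 and 42. In all 3 the control library was the low one. Ptgds, prostaglandin D synthase, had 35 counts in t/t, 59 in ΔC10mut, 55 in control and 16 in NTG, with NTG as the low one.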

How the data were processed

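Gene expression was measured by poly(A) RNA sequencing in 4 libraries, each 1 pool of 3 mouse hearts at 12 weeks. The deposited values are raw counts per RefSeq transcript, made by the authors with STAR and HTSeq against mm10 per the submitters' processing notes. Their versions and the strand setting are not given in the sources used here. Counting can drop or split reads that fit several transcripts: genes with more than 1 transcript were 58.8% of transcripts but held 14.1% of ΔC10mut and 13.8% of t/t counts.

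From these, counts were summed per symbol (41247 of 41449 transcripts named from RefSeq, 98 without symbol) and scaled to library totals. Genes with 10 or more counts in either library of a ratio were compared, with exact 95% intervals that cover counting error only, and 0 was raised to 3 counts for a ratio. For differences between ratios, 0.5 was added to each count. Exons and opposite-strand partners came from GENCODE M21 and sequences from RefSeq (GRCm38.p6). Tools were Python 3.11.15, scipy and edgeR (TMM factors only), and the ratio code was tested on simulated data. No count model was fitted, since each group has 1 library.

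Genes named were Mybpc3, the 12 largest counted ratios each way at 50 or more counts, the 8 largest differences from the control ratio each way, up to 4 largest and 2 most abundant members of each list, and genes counted in opposite directions. A few genes that the rule names are not reported here. Others are said to be chosen after their values were seen, or are complete sets of counted list members. The genes compared and the 22 pathway and 12 cell type lists were chosen with earlier results of these data known. Alternatives were TMM and median-of-ratios factors, minimums of 20 counts or none, 99% intervals, the most abundant transcript only and genes without opposite-strand exons.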

Additional observations from a re-analysis of the deposited data

Results flagged for a closer look

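In 5 genes the mutant and the control ratio were both counted but pointed in opposite directions, and the difference was not tested. The values are differences of log2 ratios, t/t over ΔC10mut minus control over NTG. Lyz2, lysozyme of macrophages, had -4.45 (28 counts in ΔC10mut, 5 in t/t, 6 in NTG, 28 in control). Gabarap, an autophagosome protein, had -2.97 (23, 9, 6 and 21 in the same order). Bace1, a secretase with Rnf214 as its partner row, had 2.33 (10, 23, 20 and 9). The noncoding row C230072F16Rik had 3.06 (6, 25, 23 and 11). Fbxo7, a ubiquitin ligase subunit with A230060F14Rik as its partner row, had 4.45 (2, 17, 13 and 4). All 5 had 28 or fewer counts in every library.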

How the results depend on the processing

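With a minimum of 20 counts, 76 genes were higher and 52 lower in t/t than in ΔC10mut, 69 higher and 43 lower in control than in NTG, and 72 apart from the control ratio. These sets are smaller because fewer genes are tested (1301 between the mutants). With 99% intervals the 5 counts were 65, 51, 52, 30 and 45. Among genes without an opposite-strand exon the mutant counts were 73 higher and 55 lower of 1108 genes, 63 were apart, and 86 were higher and 19 lower in control of 977, against 118 and 65 of all genes. TMM factors, median-of-ratios factors, no minimum, the most abundant transcript only, and genes with 1 transcript (chosen after seeing the data) kept the counts within 1.5 times. Of the 224 genes counted between the mutants, 211 were also counted under TMM factors and 116 with 99% intervals. TMM factors shifted the median control ratio by -0.13 and the median mutant ratio by -0.05. The log2 ratios of 39 named genes stayed within their intervals under all 3 scalings tried. The calcium cycling median changed sign, to -0.02, at 20 or more counts, and the extracellular matrix median moved from 0.25 to 0.00; the medians of the other lists with at least 5 measured members kept their sign under TMM factors and at 20 counts. No replicate could be left out, because each group has 1 library. No paired analysis was possible because the result comes from no test and each group holds 1 pool.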

Other observations

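Between the mutants and between the controls, 13 genes differed in the same direction. Higher in t/t than in ΔC10mut and in control than in NTG were Prr33, Tmem65 (a mitochondrial inner membrane protein of muscle), Nceh1 (a cholesterol ester hydrolase), Casq1, Leng8, 1110002L01Rik, 4930506C21Rik and Srrm4os. Srrm4os did not split the libraries by strain label, with 19 counts in t/t, 6 in ΔC10mut, 53 in control and 25 in NTG. Tmem65 had 60 counts in t/t and 36 in control, against 30 in ΔC10mut and 16 in NTG, and Nceh1 had 45 and 32 against 20 and 14. Lower in both comparisons were, among others, Mhrt, Inppl1, Xcr1 (a chemokine receptor of dendritic cells) and Casc1. Inppl1, an inositol phosphatase of insulin signalling with Gm10602 as its partner row, had 3 counts in t/t and 1 in control, against 37 in ΔC10mut and 21 in NTG. Xcr1 had 5 and 11 counts against 25 in each C57BL/6 library. The log2 ratios of Tmem65 were 1.01 between the mutants and 1.12 between the controls, and those of Inppl1 were -3.62 and -4.44. These genes were grouped after their values were seen.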
